A study of Mus musculus with 33 samples.

Results

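Retinoic acid and DMSO send the same cells along different routes, and the 2 routes were compared here at day 3 across all 14717 genes of the deposited table, in 6 of the 33 samples of the series. P19 is a mouse embryonal carcinoma line, a multipotent line that can be grown undifferentiated and then differentiated as aggregates. D3RA cells had been given 1 µM all-trans retinoic acid while they formed embryoid bodies for 2 days in bacteriological dishes, and were then moved to flasks with maintenance medium. D3DMSO cells went through the same steps with 1% DMSO in place of retinoic acid. Each group had 3 libraries, described as biological replicates. The labels name no separate cultures, so a p-value here measures only how far libraries of the same group spread, which may be technical. D6RA and D6DMSO, the same routes at day 6, and D0, the undifferentiated cells, had 3 libraries each and are used here only to place the day 3 values. Every group came from 1 cell line, the vehicle of the retinoic acid is not given in the labels, and no group of embryoid bodies without either agent was analysed here, so a difference below is between the 2 agents and is not an effect of one of them alone. Chromatin immunoprecipitation of H3K9me2 and H3 in 18 further samples was not analysed here.

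Retinoic acid is made from vitamin A by retinaldehyde dehydrogenases, is removed by the CYP26 enzymes, and acts through pairs of a retinoic acid receptor and a retinoid X receptor that sit on DNA at direct repeats of a short core site. In the vertebrate embryo it patterns the hindbrain and spinal cord, in part through the Hox clusters. P19 aggregates are known for giving neurons and glia after retinoic acid, and mesodermal cells, among them beating cardiac muscle, after DMSO. Mesoderm forms at the primitive streak, where brachyury (T), Wnt, FGF and Nodal signals are active.

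The 4 marker genes of the routes, and the retinoic acid hydroxylase gene Cyp26a1, are shown with the 250 bases before their annotated start sites, because Rarb is known for a retinoic acid response element just before its start. The windows come from RefSeq on GRCm38.p6, are given 5′ to 3′ on the strand of the gene, and are those of Rarb (chr14:16575477-16575726, minus strand), Cyp26a1 (chr19:37697558-37697807, plus strand), T (chr17:8434173-8434422, plus strand), Aldh1a2 (chr9:71215539-71215788, plus strand) and the 2 annotated starts of Pax6 (chr2:105668646-105668895 and chr2:105682213-105682462, plus strand). Capitals mark a direct repeat of 2 core sites with 5 bases between them in Rarb and Cyp26a1, and the T-box core AGGTGT in T, Aldh1a2 and Cyp26a1, each on either strand.
Rarb: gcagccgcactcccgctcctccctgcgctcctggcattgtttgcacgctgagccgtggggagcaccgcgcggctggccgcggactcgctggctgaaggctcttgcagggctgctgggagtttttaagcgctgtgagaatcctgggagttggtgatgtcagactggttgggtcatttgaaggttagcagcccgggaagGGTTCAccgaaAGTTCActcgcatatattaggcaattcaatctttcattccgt
Cyp26a1: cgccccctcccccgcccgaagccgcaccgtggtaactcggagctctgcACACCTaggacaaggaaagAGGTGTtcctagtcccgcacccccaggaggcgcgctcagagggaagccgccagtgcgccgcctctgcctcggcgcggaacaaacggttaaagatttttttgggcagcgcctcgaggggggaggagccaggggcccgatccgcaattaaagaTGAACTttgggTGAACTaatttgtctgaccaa
T: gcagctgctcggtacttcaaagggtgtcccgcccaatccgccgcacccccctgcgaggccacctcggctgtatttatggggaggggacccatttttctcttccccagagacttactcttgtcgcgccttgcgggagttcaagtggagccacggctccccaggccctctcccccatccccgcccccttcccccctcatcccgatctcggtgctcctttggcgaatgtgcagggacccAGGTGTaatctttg
Aldh1a2: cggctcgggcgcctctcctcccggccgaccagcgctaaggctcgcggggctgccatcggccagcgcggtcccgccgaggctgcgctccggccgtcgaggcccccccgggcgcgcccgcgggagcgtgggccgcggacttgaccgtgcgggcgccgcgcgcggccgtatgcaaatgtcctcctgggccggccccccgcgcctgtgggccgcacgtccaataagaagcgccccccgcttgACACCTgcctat
Pax6, upstream start: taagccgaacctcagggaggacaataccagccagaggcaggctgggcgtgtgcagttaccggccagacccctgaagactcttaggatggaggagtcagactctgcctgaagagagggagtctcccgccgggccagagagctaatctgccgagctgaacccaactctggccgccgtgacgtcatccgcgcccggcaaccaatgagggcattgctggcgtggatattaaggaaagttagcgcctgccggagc
Pax6, downstream start: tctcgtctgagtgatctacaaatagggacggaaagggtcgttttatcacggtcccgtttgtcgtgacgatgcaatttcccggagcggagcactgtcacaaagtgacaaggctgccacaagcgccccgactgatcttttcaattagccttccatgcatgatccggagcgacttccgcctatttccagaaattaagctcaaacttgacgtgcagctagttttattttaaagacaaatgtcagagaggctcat

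The repeat in Rarb lay 53 to 37 bases before the start, and that in Cyp26a1 lay 32 to 16 bases before the start on the other strand. Core sites searched were AGGTCA, its variant AGTTCA, and the forms GGGTCA and, as a further variant, GGTTCA, on both strands. Repeats with spacers of 1, 2 and 5 bases were searched. A spacer of 5 bases was in 29 of 32851 windows (0.0883%), and 4 of those windows belong to genes of the table. Of those 4 genes, Rarb and Syndig1 were higher in D3RA and Cyp26a1 and Blvrb were lower. Syndig1 and Blvrb were named after their values were seen. A spacer of 1 base was in 54 windows (0.164%), with 20 genes in the table, 5 higher and 8 lower in D3RA, and a spacer of 2 bases in 57 windows (0.174%), with 9 genes, 3 higher and 4 lower. None of these genes is on the retinoid lists, but not every gene of those lists had a window to search, Crabp2 among those without one. The T-box core is common, in 3887 windows (11.8%) and upstream of 1185 genes of the table, of which 363 (30.6%) were called higher and 424 (35.8%) lower in D3RA, beside 31.0% and 33.4% of the 10355 genes of the table with a window. Neither motif was in the Pax6 windows, which says only that these letters are not there.

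The deposited values are log2 counts on a library scale, from which whole counts were recovered, and levels below are CPM, counts scaled to a common library size as that scale implies. Totals per library ran over 3549553 to 9823766 counts in D3RA and 5857131 to 6868198 in D3DMSO. The 4 rRNA-like genes, Lars2 and Gm15564 among them, took a varying share of the counts outside the mitochondrial genes. That share was 1.97, 39.5 and 45.7% in D3RA replicates 1, 2 and 3. In the D3DMSO replicates it was 3.09, 32.8 and 24.0%, so replicate 1 stood apart in both groups. Because of that difference, gene list counts were also made from replicate 1 of each group alone, with the spread taken from the other groups, and are given wherever they move by more than 1.5 times. A gene was called when limma, fitted to all 15 RNA libraries with 1 coefficient per group, gave a Benjamini-Hochberg adjusted p under 0.05 over the 14717 genes. All fold changes are log2, D3RA minus D3DMSO, followed by their standard error. With bulk RNA, fewer cells that express a gene and less RNA of it per cell cannot be told apart.

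The markers separated the groups in the directions their names imply. Rarb, the retinoic acid receptor that is itself raised by retinoic acid, was at 273, 273 and 244 CPM in D3RA, against 1.52, 1.85 and 1.39 CPM in D3DMSO. All 3 D3RA libraries were far above all 3 D3DMSO libraries, a log2 fold change of 7.31 ± 0.14 (limma adjusted p = 1.2e-15). Pax6, a transcription factor of neural tube progenitors, was at 157, 141 and 148 CPM in D3RA and at 0.967, 0.411 and 0.929 CPM in D3DMSO, again without overlap (7.52 ± 0.24, limma adjusted p = 2.3e-13). T, the T-box factor of nascent mesoderm, ran the other way, with 0.182, 0.651 and 0 CPM in D3RA against 854, 891 and 877 CPM in D3DMSO. No D3RA library came near the D3DMSO libraries, and its fitted fold change was -11.29 ± 0.46 (limma adjusted p = 3.1e-12). Aldh1a2, the retinaldehyde dehydrogenase of mesoderm, was at 1.18, 0.651 and 0.457 CPM in D3RA and at 188, 245 and 208 CPM in D3DMSO (-7.91 ± 0.26, limma adjusted p = 3.5e-13). In undifferentiated cells the means of these 4 genes were 2.53 CPM for Rarb, 1.80 for Pax6, 3.00 for T and 0.315 for Aldh1a2, so each was high in 1 route only among these 3 groups.

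**Figure D1:**
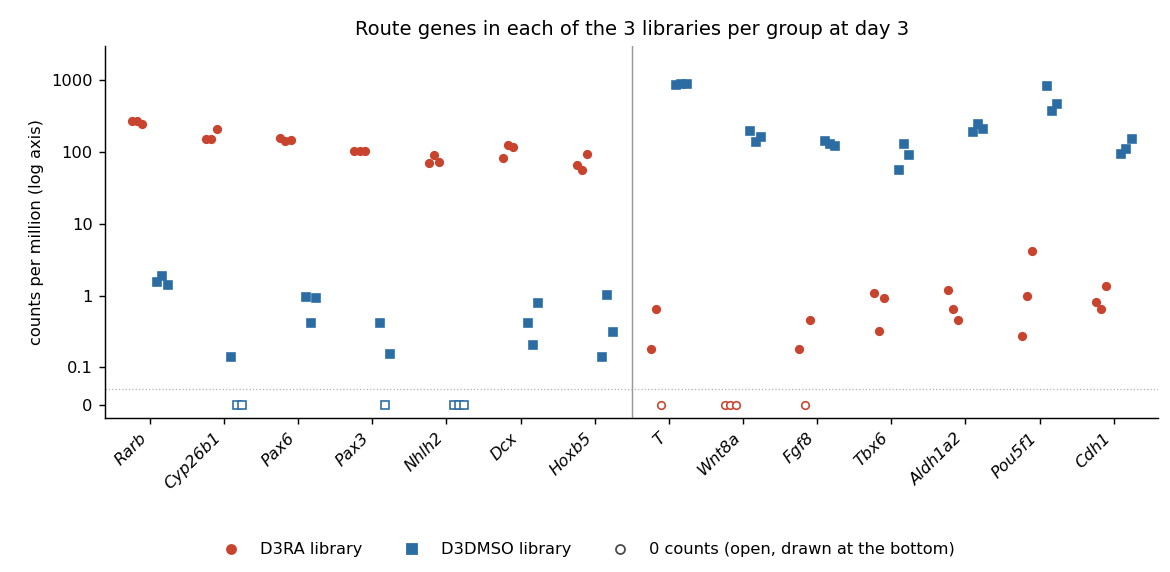
CPM (log axis) of 14 route genes in each library, D3RA as circles left of D3DMSO as squares, with libraries at 0 counts drawn open at the bottom. The 7 genes on the left are high in all 3 D3RA libraries and the 7 on the right in all 3 D3DMSO libraries, with no overlap for any of them.

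Across the whole table, 9136 of 14717 genes (62.1%) were called. D3RA was higher for 4517 genes (30.7%) and lower for 4619 (31.4%), and the median fold change of all genes was -0.01. These shares over all genes are those to set beside the count of any list below. Most calls were small: 5497 called genes differed by less than 2-fold, and the median size of a called log2 fold change was 0.80. At 2-fold or more, 1745 genes (11.9%) were higher and 1894 (12.9%) lower. At 32-fold or more the split was 165 higher and 80 lower, and at 128-fold or more 42 higher and 20 lower. All 3 D3RA libraries lay above all 3 D3DMSO libraries for 4198 genes (28.5%) and below them for 4418 (30.0%). In 67 genes D3DMSO had no count while D3RA had more than 3, and in 52 the reverse held.

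**Figure D2:**
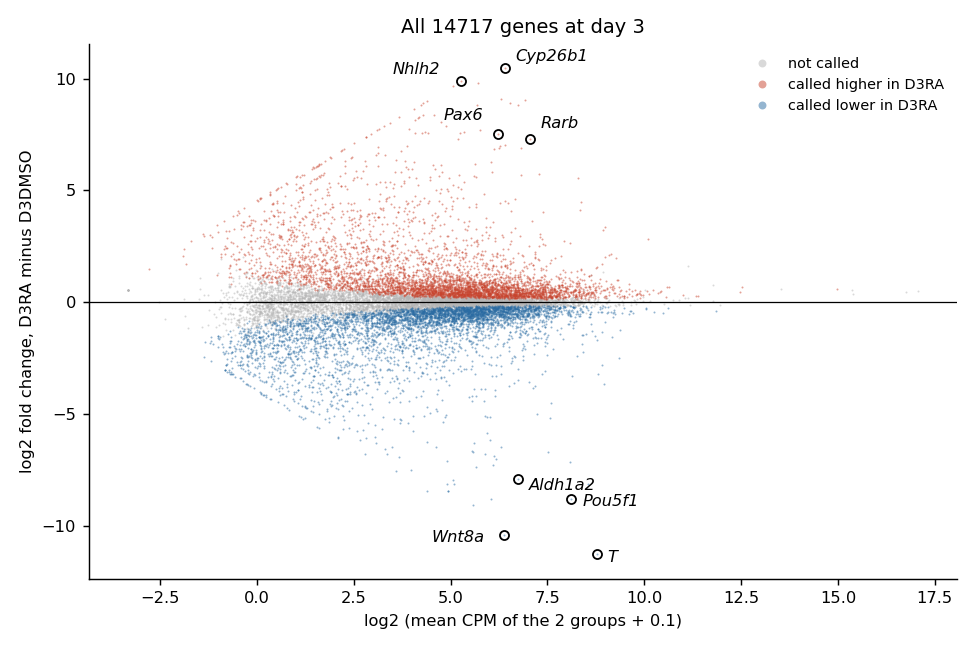
Log2 fold change (D3RA minus D3DMSO) of each gene against its mean level on a log2 scale, coloured by call. Cyp26b1, Nhlh2, Pax6 and Rarb sit high among the 4517 genes called higher in D3RA, and T, Wnt8a, Pou5f1 and Aldh1a2 low among the 4619 called lower.

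Of the genes named for the size of their change, Cyp26b1, an enzyme that breaks down retinoic acid, was at 149, 150 and 205 CPM in D3RA, against 0.138, 0 and 0 CPM in D3DMSO. Its D3DMSO libraries held 1 count in all, and the ratio of summed counts was 2914, with a 95% interval of 522 to 115120 that covers counting error only. Nhlh2, a helix-loop-helix factor of young neurons, was at 69.1, 91.9 and 71.7 CPM in D3RA and had no count in D3DMSO, so it was at least 457-fold higher against a floor of 3 counts over the group. Nr2f1 (COUP-TFI), an orphan receptor of the developing nervous system, was at 97.2, 103 and 114 CPM in D3RA and at 0, 0 and 0.155 CPM in D3DMSO. Epha3, an axon guidance receptor, was at 226, 278 and 220 CPM in D3RA, against 0.276, 0.411 and 0.465 CPM in D3DMSO (9.04 ± 0.26, limma adjusted p = 5.1e-14). The 12 highest also held genes with other roles, among them Fli1, an ETS factor of endothelium and blood that is given below. Hk3, a hexokinase known from myeloid cells, was at 75.5, 60.6 and 65.3 CPM in D3RA. The growth factor gene Igf1 was at 32.8, 46.6 and 37.9 CPM in D3RA. Neither Hk3 nor Igf1 had a count in D3DMSO, and they were at least 441-fold and at least 223-fold higher in D3RA.

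Among the lowest, Wnt8a, a Wnt ligand of the streak, had no count in D3RA and 198, 138 and 160 CPM in D3DMSO, which made it at least 915-fold lower. Cdx2, a caudal factor of posterior tissue, had 1 count over the 3 D3RA libraries and 79.1, 117 and 90.2 CPM in D3DMSO, and summed counts were 1510 times lower (counting interval 271 to 59689). Vrtn, known for vertebral number in pigs, was at 0, 0 and 0.457 CPM in D3RA and at 61.3, 62.4 and 59.3 CPM in D3DMSO. Alox15, a lipoxygenase, was at 0, 0 and 0.457 CPM in D3RA against 73.2, 56.4 and 54.1 CPM in D3DMSO. These 2 differed in D0, where Vrtn averaged 100.2 CPM and Alox15 2.18 CPM. Genes with levels alike in both groups were also found: Itgb1, the beta 1 integrin, was at 420, 434 and 386 CPM in D3RA and at 407, 432 and 400 CPM in D3DMSO, and its fold change was 0.00 ± 0.06.

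Genes that make and carry retinoids moved in both directions, with 5 of 9 measured members (55.6%) higher and 4 (44.4%) lower. Over all genes these shares were 30.7% and 31.4%. The intracellular carrier Crabp2 was at 884, 934 and 934 CPM in D3RA, against 66.6, 102 and 107 CPM in D3DMSO (3.35 ± 0.15, limma adjusted p = 1.2e-11). Crabp1, the other carrier, was at 123, 127 and 94.1 CPM in D3RA and at 18.8, 40.4 and 26.6 CPM in D3DMSO. Both carriers were higher in every D3RA library. Dhrs3, which turns retinaldehyde back to retinol, was at 48.1, 68.1 and 51.2 CPM in D3RA, against 2.76, 3.08 and 2.79 CPM in D3DMSO (4.22 ± 0.13, limma adjusted p = 1.5e-13). Stra6, the membrane receptor for retinol uptake, was low in both groups, at 7.56, 6.19 and 13.2 CPM in D3RA and at 1.52, 2.05 and 1.08 CPM in D3DMSO. Rdh10, which makes retinaldehyde on the way to retinoic acid, was lower in D3RA. It was at 8.01, 7.17 and 7.76 CPM in D3RA, against 41.3, 29.1 and 31.1 CPM in D3DMSO (-2.11 ± 0.14, limma adjusted p = 1.2e-09). Aldh1a2 was lower in D3RA as given above, where its level in D0 was also low. Both genes of synthesis named here were thus lower in D3RA, and both carriers and Dhrs3 were higher.

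The 2 measured breakdown enzymes went opposite ways. While Cyp26b1 was almost exclusive to D3RA, Cyp26a1, the other hydroxylase, was at 18.2, 11.4 and 10.0 CPM in D3RA, against 83.5, 93.0 and 67.4 CPM in D3DMSO. It was lower in every D3RA library (-2.64 ± 0.25, limma adjusted p = 1.3e-07), and its window holds the same kind of repeat as that of Rarb. Both groups were above D0, where Cyp26a1 averaged 3.97 CPM.

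Of 13 receptors and cofactors, 7 (53.85%) were called higher and 4 (30.77%) lower, with a median fold change of 0.51. Among all genes these shares were 30.7% and 31.4%. Nr2f2 (COUP-TFII) was at 23.8, 21.2 and 32.4 CPM in D3RA and at 0.276, 0.411 and 0.465 CPM in D3DMSO (5.80 ± 0.37, limma adjusted p = 8.4e-10). Receptor subtypes differed among themselves: Rarg, the gamma receptor, was at 3.46, 1.95 and 4.57 CPM in D3RA, against 17.5, 20.3 and 17.8 CPM in D3DMSO (-2.50 ± 0.22, limma adjusted p = 5.5e-08). Rxra was at 40.0, 35.8 and 42.5 CPM in D3RA and at 13.9, 17.0 and 16.7 CPM in D3DMSO, whereas Rxrb was at 47.2, 42.7 and 47.0 CPM in D3RA and at 66.6, 61.6 and 54.1 CPM in D3DMSO, so the 2 genes were called in opposite directions. Nr6a1 (GCNF), known as a repressor of Pou5f1, was at 46.9, 45.6 and 49.8 CPM in D3RA, against 205, 258 and 247 CPM in D3DMSO (-2.31 ± 0.08, limma adjusted p = 3.5e-13). Ncor1, a corepressor of unliganded receptors, was not called, with 310, 332 and 317 CPM in D3RA and 250, 293 and 317 CPM in D3DMSO.

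Hox genes, which give cells their position along the body axis, were higher in D3RA at nearly every position. Of 14 measured members of paralog groups 1 to 5, 12 were called higher, 1 lower and 1 not called, with a median fold change of 3.74, and of 10 members of groups 6 to 13, 8 were higher, 1 lower and 1 not called, with a median of 3.91. All genes together gave 30.7% higher, 31.4% lower and a median of -0.01. Hoxb5 was at 64.9, 56.4 and 94.1 CPM in D3RA and at 0.138, 1.03 and 0.310 CPM in D3DMSO (7.29 ± 0.42, limma adjusted p = 2.1e-10). Hoxb6 was at 172, 186 and 195 CPM in D3RA, against 0, 1.03 and 0.620 CPM in D3DMSO, and Hoxc5 at 80.8, 72.3 and 73.1 CPM in D3RA, against 0.138, 1.23 and 0.155 CPM in D3DMSO. Hoxa5 was at 205, 180 and 202 CPM in D3RA and, unlike these, was also readily counted in D3DMSO, at 4.83, 11.1 and 9.14 CPM (4.62 ± 0.24, limma adjusted p = 6.3e-11).

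The exceptions stood at both ends of the clusters. Hoxb1, the paralog 1 member of its cluster, was at 5.83, 4.23 and 5.02 CPM in D3RA, against 20.9, 50.9 and 37.3 CPM in D3DMSO (-2.73 ± 0.29, limma adjusted p = 4.7e-07). Hoxd9, at the other end, was at 0.455, 1.30 and 0.914 CPM in D3RA, against 7.73, 22.6 and 10.2 CPM in D3DMSO (-3.70 ± 0.71, limma adjusted p = 0.00025). Hoxd1 was at 9.29, 5.21 and 7.31 CPM in D3RA and at 5.11, 8.42 and 8.83 CPM in D3DMSO, overlapping and not called. Hoxa9 was near the floor in both groups, at 0.911, 1.30 and 0 CPM in D3RA and at 0.138, 1.44 and 0.155 CPM in D3DMSO. No Hox gene averaged more than 0.417 CPM in D0.

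Neighbours of the Hox genes moved with them. Along the RefSeq gene order of GRCm38.p6, counting genes of the table only, 38 stretches of at least 4 adjacent genes were all called by 2-fold or more in the same direction, 18 higher and 20 lower. The longest ran over 13 genes, Skap2 to Hoxa7, and the next over 10, Hoxb9 to Hoxb2, both higher in D3RA, while stretches of 4 held Hoxc6, Hoxc5, Hoxc4 and Smug1, and Hoxd8, Hoxd3os1, Hoxd3 and Haglr. Several members are antisense or overlapping transcripts, and since the strand used in counting is not given in the sources used here, their reads cannot be told apart from those of the Hox genes. Among stretches lower in D3RA were the 4 genes Ano1, Fgf3, Fgf4 and Fgf15, and a stretch of 5 with Lefty2 and Lefty1. The genes named in this paragraph were picked after their values were seen.

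The D3DMSO libraries were not alike in Hox level. All 24 Hox genes were lowest in D3DMSO replicate 1, and 23 of 24 were highest in replicate 2. Over the 9437 genes at 10 CPM or more in D3DMSO, replicate 1 was the lowest in 3642 and replicate 2 the highest in 2909. Summed over paralog groups 1 to 5, the 3 D3DMSO libraries stood at 64.2, 162 and 112 CPM. The pluripotency list ran the other way, with summed levels of 3681, 2520 and 3029 CPM in the same libraries, and the paraxial mesoderm list with the Hox genes, at 514, 828 and 649 CPM. The rRNA-like share of these libraries (3.09, 32.8 and 24.0%) had the same order as the Hox genes, and its part was not tested. In D3RA, where that share also differed, replicate 1 was lowest in 7 of 24 Hox genes. These were 1 of 14 in paralog groups 1 to 5 and 6 of 10 in groups 6 to 13. Without D3DMSO replicate 1, the counts of Hox genes called higher stayed at 12 and 8.

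TALE cofactors that bind DNA with Hox proteins were higher too: 8 of 9 were called higher and none lower, with a median of 0.75. Meis1 led with 219, 234 and 211 CPM in D3RA, against 3.73, 3.90 and 4.96 CPM in D3DMSO (5.70 ± 0.16, limma adjusted p = 5.5e-14). The others differed less, and Pbx2, with 188, 173 and 159 CPM in D3RA and 73.3, 77.6 and 79.9 CPM in D3DMSO, was near 2-fold (1.17 ± 0.08, limma adjusted p = 1.9e-09). Pbx4 was not called, at 5.19, 2.28 and 5.94 CPM in D3RA and 3.18, 3.28 and 3.72 CPM in D3DMSO.

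Neural progenitor genes were higher in 19 of 27 cases (70.4%) and lower in 4 (14.8%), with a median of 1.85. Of all genes, 30.7% were higher and 31.4% lower. Sox21, a SoxB factor of neural progenitors, was at 37.8, 41.7 and 46.6 CPM in D3RA and had no count in D3DMSO, so it was at least 246-fold higher. Dbx1, which marks a band of interneuron progenitors in the hindbrain and spinal cord, was at 32.3, 34.9 and 45.7 CPM in D3RA and had no count in D3DMSO, at least 214-fold higher. Pax3, a factor of the dorsal neural tube, was at 101, 103 and 104 CPM in D3RA, against 0.414, 0 and 0.155 CPM in D3DMSO (8.83 ± 0.35, limma adjusted p = 2.2e-12). The 4 genes lower in D3RA included those of other axial levels. Otx2, a factor of forebrain and midbrain that is also high in early epiblast, was at 5.56, 3.58 and 5.02 CPM in D3RA, against 109, 74.3 and 85.4 CPM in D3DMSO and a D0 mean of 267 CPM (-4.20 ± 0.16, limma adjusted p = 1.7e-12). En1, of the midbrain and hindbrain border, was near the floor, at 0.546, 0 and 0.914 CPM in D3RA and 1.80, 0.821 and 1.70 CPM in D3DMSO, with overlap (-1.60 ± 0.52, limma adjusted p = 0.013). That call was lost with the 6 D3 libraries alone (limma adjusted p = 0.082), with libraries thinned to the smallest (0.074), and without D3RA replicate 2 (-0.82, limma adjusted p = 0.072). Nkx6-1, a ventral factor, had 1 count in all in D3RA and 1.52, 1.44 and 0.620 CPM in D3DMSO, and its call was lost with thinned libraries. Msx1, known from dorsal neural tube and from mesoderm, was not called, at 59.0, 51.1 and 54.8 CPM in D3RA and 33.3, 82.7 and 39.5 CPM in D3DMSO.

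Proneural factors and the Notch pathway, which time the exit of progenitors to neurons, gave 19 of 27 higher, 5 lower and a median of 2.89. Neurog1, a proneural factor, was at 20.8, 24.8 and 30.6 CPM in D3RA with no count in D3DMSO, at least 141-fold higher. St18, a zinc finger factor of young neurons, was at 37.6, 66.1 and 38.4 CPM in D3RA, against 0, 0 and 0.310 CPM in D3DMSO, where 2 counts made up the group. Among those lower in D3RA were Notch ligands that presomitic mesoderm also uses. Dll1, a Notch ligand, was at 61.2, 58.6 and 73.1 CPM in D3RA, against 111, 230 and 166 CPM in D3DMSO (-1.34 ± 0.19, limma adjusted p = 1e-05). Dll3, a divergent ligand, was at 11.4, 11.7 and 7.76 CPM in D3RA and at 70.1, 94.6 and 82.9 CPM in D3DMSO (-3.0 ± 0.17, limma adjusted p = 1.4e-10). Hes1, a target, was at 45.4, 45.3 and 46.6 CPM in D3RA and at 89.8, 71.0 and 70.2 CPM in D3DMSO. The ligand Jag1 was also lower in D3RA. The receptor Notch1 was not called, at 108, 85.3 and 126 CPM in D3RA and 48.9, 114 and 113 CPM in D3DMSO.

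Genes of differentiating neurons were higher in 37 of 43 cases, lower in 3, with a median of 3.05. Dcx, a microtubule protein of migrating neurons, was at 83.3, 123 and 115 CPM in D3RA and at 0.414, 0.205 and 0.775 CPM in D3DMSO (7.72 ± 0.34, limma adjusted p = 9.5e-12). Robo3, an axon guidance receptor of crossing axons, was at 156, 165 and 183 CPM in D3RA, against 2.21, 0.821 and 0.929 CPM in D3DMSO. Gap43, a growth cone protein, was at 139, 174 and 142 CPM in D3RA and at 1.24, 1.03 and 1.24 CPM in D3DMSO (6.92 ± 0.15, limma adjusted p = 2.3e-15). The netrin receptor gene Dcc was at 39.9, 43.6 and 44.3 CPM in D3RA, against 0.138, 0 and 0.465 CPM in D3DMSO. Not every gene of the list followed. Lhx1, a LIM factor of spinal interneurons and of the streak, was at 20.1, 30.9 and 24.2 CPM in D3RA, against 58.8, 67.7 and 95.4 CPM in D3DMSO (-1.55 ± 0.21, limma adjusted p = 8.5e-06). Isl1, of motor neurons and of cardiac progenitors, was low in both, at 1.18, 0.977 and 0.914 CPM in D3RA and 2.21, 2.87 and 2.63 CPM in D3DMSO (-1.17 ± 0.36, limma adjusted p = 0.0099). The call of Isl1 was lost from replicate 1 alone, with the 9 D0 and D3 libraries alone and with thinned libraries, at limma adjusted p-values of 0.062 to 0.35. Stmn2, a neuronal stathmin, was not called, at 65.5, 87.3 and 75.8 CPM in D3RA and 105, 74.9 and 89.1 CPM in D3DMSO, and it averaged 171 CPM in D0.

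On the mesodermal side, all 27 measured genes of nascent mesoderm and the primitive streak were called lower in D3RA, with a median of -5.24. Their summed level was 137 to 148 CPM over the D3RA libraries, against 2855 to 3036 CPM in D3DMSO and 432 to 491 CPM in D0. Fgf8, an FGF ligand of the streak, was at 0.182, 0 and 0.457 CPM in D3RA, against 142, 128 and 121 CPM in D3DMSO, and summed counts were 710 times lower (counting interval 243 to 3445). Nodal, the TGF-beta ligand that induces mesoderm, was at 0.455, 0 and 0 CPM in D3RA, against 83.5, 54.8 and 61.7 CPM in D3DMSO (-7.95 ± 0.46, limma adjusted p = 2.3e-10). Its feedback antagonist Lefty2 had 2 counts in all in D3RA and 43.6, 79.4 and 56.4 CPM in D3DMSO, and summed counts were 467 times lower (counting interval 129 to 3858). With replicate 1 of each group alone, 26 of the 27 were called.

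Paraxial mesoderm genes were lower in 8 of 12 cases and higher in 2, with a median of -2.34. Tbx6, the T-box factor of presomitic mesoderm, was at 1.09, 0.326 and 0.914 CPM in D3RA, against 56.2, 130 and 90.6 CPM in D3DMSO (-6.67 ± 0.32, limma adjusted p = 2.5e-11). Snai1, which drives epithelial to mesenchymal transition at the streak, was at 0.364, 0 and 0.457 CPM in D3RA and at 17.5, 20.5 and 17.2 CPM in D3DMSO. Both genes were higher in every D3DMSO library. The 2 higher in D3RA were Uncx and Lfng. Uncx, a homeobox gene of somites that is also known from the nervous system, was at 4.01, 4.56 and 6.85 CPM in D3RA with no count in D3DMSO. Lfng, a modifier of Notch, was at 55.0, 42.0 and 54.4 CPM in D3RA against 22.0, 31.0 and 18.9 CPM in D3DMSO. Meox1, a somite gene, was not called, at 4.01, 4.56 and 3.20 CPM in D3RA and 6.08, 7.39 and 4.65 CPM in D3DMSO.

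Cardiac and lateral mesoderm genes were less uniform, with 10 of 18 (55.6%) lower, 4 (22.2%) higher and a median of -1.34. Of all genes, 31.4% were lower and 30.7% higher. Pdgfra, a growth factor receptor of mesoderm, was at 3.10, 3.58 and 2.74 CPM in D3RA, against 77.1, 144 and 123 CPM in D3DMSO (-5.08 ± 0.21, limma adjusted p = 4.7e-12). Gata4 and Gata6, factors of heart and endoderm, were low in both groups, Gata6 at 2.09, 0.651 and 2.28 CPM in D3RA and 13, 12.5 and 16.6 CPM in D3DMSO (-3.10 ± 0.36, limma adjusted p = 1.3e-06). Gata4 was at 1.18, 0 and 0.914 CPM in D3RA and 6.77, 8.83 and 6.82 CPM in D3DMSO. Tbx2, a T-box repressor, and Mef2c, a factor of heart and neurons, were higher in D3RA, Mef2c at 15.4, 14.0 and 20.6 CPM in D3RA against 2.07, 2.67 and 2.79 CPM in D3DMSO (2.69 ± 0.20, limma adjusted p = 6.2e-09). Kdr, a VEGF receptor of early mesoderm and endothelium, was not called, at 66.8, 53.7 and 78.6 CPM in D3RA and 31.5, 60.3 and 48.5 CPM in D3DMSO. From replicate 1 alone, 6 of the 18 were called lower, not 10.

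Genes of the cardiac sarcomere were low at day 3. In this list 8 of 11 were called lower and none higher, with a median of -1.28, but summed levels were 224 to 234 CPM in D3RA, 273 to 344 CPM in D3DMSO and 380 to 444 CPM in D0. Actc1, cardiac alpha actin, was at 2.64, 3.26 and 2.74 CPM in D3RA, against 12, 10.7 and 9.45 CPM in D3DMSO and a D0 mean of 12.9 CPM (-1.84 ± 0.22, limma adjusted p = 1.4e-06). Myl4, an atrial light chain, had 1 count in all in D3RA and 4.14, 6.36 and 3.41 CPM in D3DMSO. In D3DMSO, then, the summed level of streak genes was above that in D0 and that of sarcomere genes was not. From replicate 1 alone, 5 of the 11 were called lower.

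**Figure D3:**
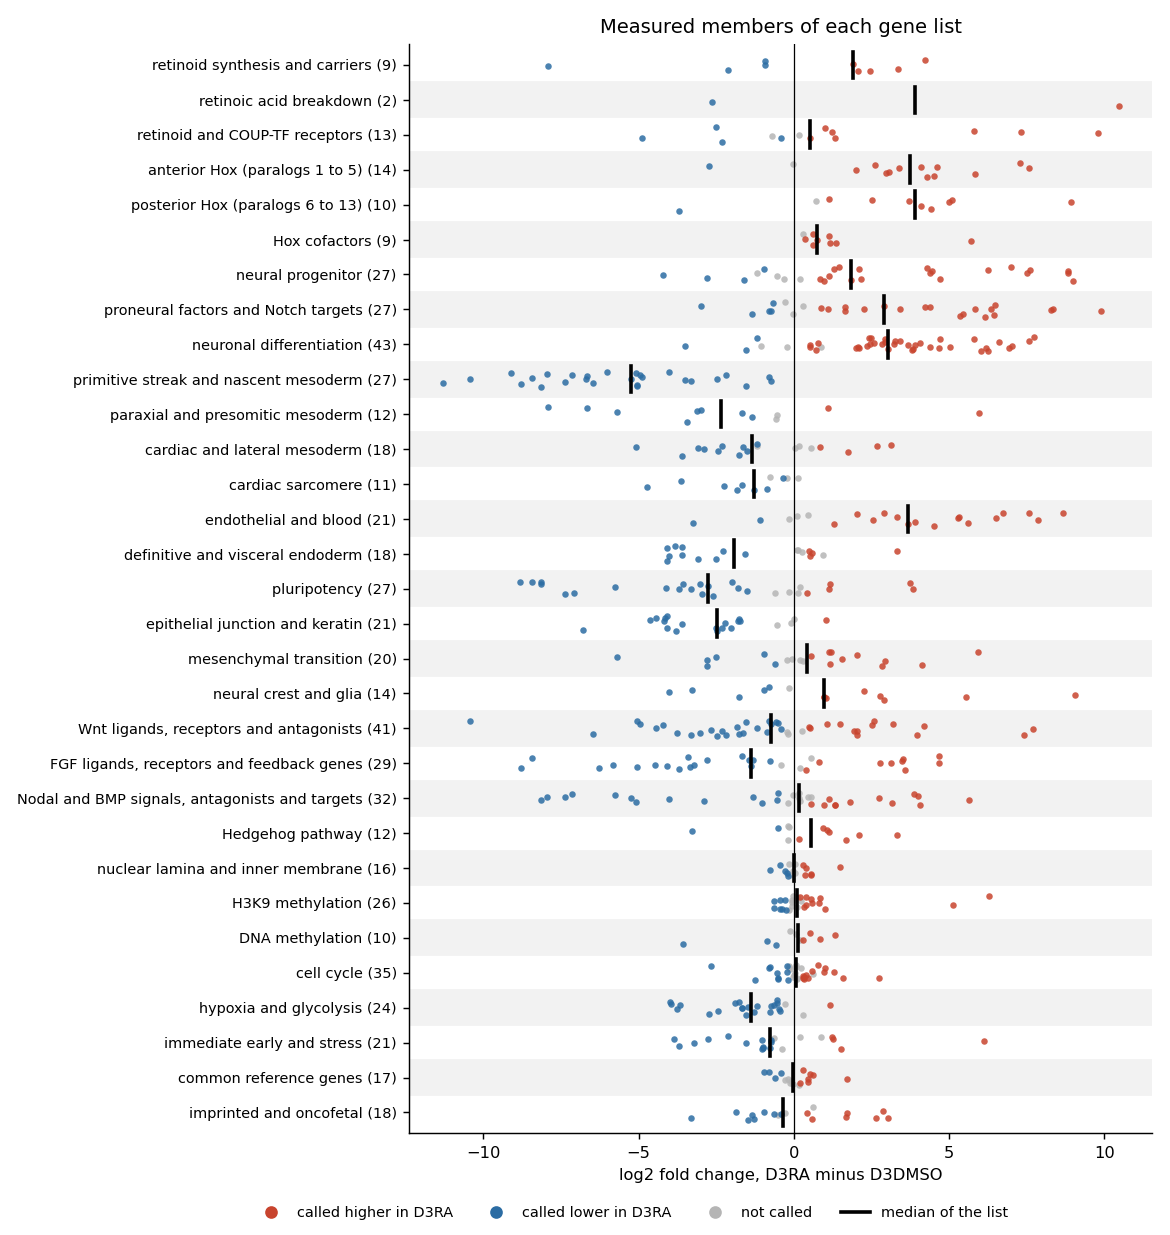
Log2 fold change (D3RA minus D3DMSO) of the measured members of 31 gene lists, 1 point a gene coloured by call, with the number measured in brackets and a bar at each list's median. Medians run from -5.24 for the primitive streak to 3.91 for the posterior Hox genes and for the 2 breakdown enzymes.

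Markers of other cell types moved with the groups. Endothelial and blood genes, which derive from mesoderm in the embryo, were higher in D3RA in 16 of 21 cases and lower in 2, with a median of 3.68. Their summed level was 321 to 407 CPM in D3RA, against 94.3 to 101 CPM in D3DMSO and 81.0 to 84.3 CPM in D0, and 3 of 21 had no count in D3DMSO. Fli1, an ETS factor of endothelium and blood, was at 28.6, 32.6 and 37.9 CPM in D3RA and had no count in D3DMSO, at least 189-fold higher. Emcn, an endothelial sialomucin, was at 18.9, 15.3 and 23.8 CPM in D3RA with no count in D3DMSO, and Tie1, an endothelial receptor, was at 41.3, 21.5 and 37.0 CPM in D3RA against 0.138, 0.205 and 0 CPM in D3DMSO. The 2 called lower were Etv2 and Flt1. Etv2 was at 0.820, 0.326 and 0.457 CPM in D3RA against 8.42, 5.13 and 5.58 CPM in D3DMSO (-3.25 ± 0.39, limma adjusted p = 1.7e-06). Flt1, a VEGF receptor, was at 11.0, 11.4 and 10.5 CPM in D3RA against 23.2, 22.2 and 25.7 CPM in D3DMSO. The part of endothelial or blood cells in the neural differences above was not tested.

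Neural crest and glial genes gave 8 of 14 (57.1%) higher, 5 (35.7%) lower and a median of 0.97. Of all genes, 30.7% were higher and 31.4% lower, so the share called lower was near that of all genes. Summed levels were 330 to 348 CPM in D3RA and 115 to 129 CPM in D3DMSO, with no member at 0 throughout either group. Ednrb, an endothelin receptor of crest and neural progenitors, was at 159, 172 and 139 CPM in D3RA, against 0.276, 0.205 and 0.155 CPM in D3DMSO (9.07 ± 0.15, limma adjusted p = 1.4e-16). Foxd3, a factor of crest and of pluripotent cells, was at 0.182, 0.326 and 0 CPM in D3RA, against 9.25, 2.26 and 4.96 CPM in D3DMSO and a D0 mean of 64.3 CPM.

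Endoderm genes were lower in 10 of 18 cases (55.6%) and higher in 4 (22.2%), with a median of -1.92, or -2.03 with Cer1 set at its bound. Of all genes, 31.4% were lower and 30.7% higher. Summed levels were 461 to 522 CPM in D3RA and 780 to 922 CPM in D3DMSO, and Cer1, a secreted Nodal and Wnt antagonist, was the 1 member with no count in D3RA, at 2.35, 1.23 and 2.17 CPM in D3DMSO. Krt8, a keratin of simple epithelium, was at 1.00, 1.63 and 1.37 CPM in D3RA, against 28.6, 22.0 and 22.8 CPM in D3DMSO (-4.08 ± 0.24, limma adjusted p = 3e-10). Sox17, of endoderm and endothelium, was higher instead, at 11.6, 8.14 and 9.59 CPM in D3RA against 1.80, 0.616 and 0.620 CPM in D3DMSO (3.33 ± 0.38, limma adjusted p = 9.3e-07).

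Genes of pluripotent cells were lower in 18 of 27 cases and higher in 5, with a median of -2.77. Pou5f1 (OCT4) was at 0.273, 0.977 and 4.11 CPM in D3RA, against 835, 369 and 461 CPM in D3DMSO and a D0 mean of 1318 CPM (-8.81 ± 0.83, limma adjusted p = 1e-07). Nanog was at 0.273, 0 and 0 CPM in D3RA, against 91.6, 43.3 and 69.4 CPM in D3DMSO and 76.7 CPM in D0. Both have processed copies in the mouse genome that could share reads, so their levels are uncertain. Trh, the thyrotropin-releasing hormone gene, was at 1.46, 1.30 and 6.85 CPM in D3RA, against 1030, 506 and 699 CPM in D3DMSO and a D0 mean of 1581 CPM. Within D3DMSO, replicate 1 was the highest for Pou5f1, Nanog and Trh, and within D3RA replicate 3 was the highest for Pou5f1 and Trh. Sox2, which neural progenitors share with pluripotent cells, went the other way, at 146, 135 and 159 CPM in D3RA and 77.5, 55.4 and 69.2 CPM in D3DMSO (1.13 ± 0.16, limma adjusted p = 1.5e-05). Esrrb, an orphan receptor of naive pluripotency, was at 7.10, 5.86 and 2.74 CPM in D3RA, against 0.552, 0 and 0.620 CPM in D3DMSO.

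Epithelial genes were lower in D3RA with little exception: 17 of 21 were called lower and 1 higher, with a median of -2.47. Cdh1 (E-cadherin), the adhesion molecule of epithelia, was at 0.820, 0.651 and 1.37 CPM in D3RA, against 92.5, 110 and 149 CPM in D3DMSO and a D0 mean of 81.2 CPM (-6.79 ± 0.24, limma adjusted p = 7.8e-13). Epcam was at 4.10, 5.86 and 5.02 CPM in D3RA, against 116, 72.7 and 96.2 CPM in D3DMSO (-4.20 ± 0.17, limma adjusted p = 3.4e-12). Cdh1 was thus far below its D0 level in D3RA and not in D3DMSO. Ocln, a tight junction protein, was the 1 gene called higher, at 6.01, 5.54 and 6.85 CPM in D3RA and 4.42, 2.05 and 2.79 CPM in D3DMSO (1.05 ± 0.29, limma adjusted p = 0.0051), a call that was lost with replicate 1 alone (limma adjusted p = 0.42) and with thinned libraries (limma adjusted p = 0.22).

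The list on mesenchymal transition split, with 10 of 20 (50%) higher, 6 (30%) lower and a median of 0.42. Of all genes, 30.7% were higher and 31.4% lower, so the share called lower was near that of all genes. Vim, the intermediate filament of mesenchyme and of neural progenitors, was at 1885, 2049 and 1780 CPM in D3RA, against 253, 282 and 269 CPM in D3DMSO (2.83 ± 0.07, limma adjusted p = 2.1e-14). Fn1 (fibronectin) was at 147, 163 and 239 CPM in D3RA and at 574, 1187 and 1604 CPM in D3DMSO, where replicate 1 was well below the others (-2.52 ± 0.30, limma adjusted p = 1.6e-06). Col3a1, a fibrillar collagen, was at 30.6, 32.6 and 30.6 CPM in D3RA and at 0.276, 0.616 and 0.465 CPM in D3DMSO.

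In the signalling families, different members were high in each route. In the Wnt list, 24 of 41 (58.54%) were lower and 14 (34.15%) higher, with a median of -0.73. Over all genes, 31.4% were lower and 30.7% higher, so the Wnt share called higher was near that of all genes. Wnt1, a ligand of the dorsal midline of the neural tube, was at 18, 16 and 16.4 CPM in D3RA with no count in D3DMSO, at least 108-fold higher, and Wnt7b at 17.3, 10.1 and 14.6 CPM in D3RA with no count in D3DMSO, at least 96.4-fold higher. Wnt3a, a ligand of the posterior streak, was at 1.27, 0.977 and 1.37 CPM in D3RA, against 31.8, 55.2 and 41.0 CPM in D3DMSO (-4.96 ± 0.37, limma adjusted p = 5.3e-09). Rspo3, which strengthens Wnt signals, was at 1.55, 1.30 and 1.83 CPM in D3RA, against 105, 208 and 156 CPM in D3DMSO (-6.48 ± 0.28, limma adjusted p = 5.6e-12). Lrp6, the coreceptor, was not called, at 163, 193 and 200 CPM in D3RA and 166, 216 and 259 CPM in D3DMSO.

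Of 29 FGF genes, 17 (58.6%) were lower and 9 (31.0%) higher, with a median of -1.39. Here too the share called higher was near the 30.7% of all genes. Members were not alike: Fgf8 was lower, as given above, while Fgf18 and Fgf12 were among those called higher. Over the alternatives their fold changes were 3.714 to 6.086 and 2.935 to 4.135. Etv5 and Spry4, which FGF signals are known to raise, were lower in D3RA, and the cause was not tested. Etv5 was at 1.82, 2.28 and 1.83 CPM in D3RA, against 130, 103 and 132 CPM in D3DMSO (-5.84 ± 0.12, limma adjusted p = 2.3e-15). Spry4 was at 1.27, 0.326 and 0 CPM in D3RA and at 34.5, 40.8 and 48.8 CPM in D3DMSO. Fgfr3, a receptor of neural progenitors, was at 77.4, 69.1 and 59.8 CPM in D3RA, against 2.49, 2.67 and 2.63 CPM in D3DMSO (4.68 ± 0.14, limma adjusted p = 8e-14). Of 32 Nodal and BMP genes, 12 (37.5%) were higher and 13 (40.6%) lower, beside 30.7% and 31.4% of all genes, with a median of 0.16. Fst (follistatin), an activin antagonist, was at 3.92, 5.21 and 2.28 CPM in D3RA, against 574, 478 and 566 CPM in D3DMSO (-7.16 ± 0.19, limma adjusted p = 3e-14), and Tdgf1 (Cripto), the Nodal coreceptor, at 0.182, 0.651 and 0.914 CPM in D3RA, against 116, 92.0 and 89.8 CPM in D3DMSO. Bmpr1b, a BMP receptor, was at 24.7, 32.9 and 34.7 CPM in D3RA and at 1.66, 1.64 and 2.01 CPM in D3DMSO (4.05 ± 0.17, limma adjusted p = 4.4e-12).

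In the Hedgehog list, 7 of 12 (58.3%) were higher and 2 (16.7%) lower, with a median of 0.57. Of all genes, 30.7% were higher and 31.4% lower. With thinned libraries, and likewise with voom weights, 4 of the 12 were higher. The coreceptors Boc, Gas1 and Cdon were all higher: Boc was at 183, 166 and 200 CPM in D3RA, against 15.7, 22.8 and 17.0 CPM in D3DMSO (3.31 ± 0.13, limma adjusted p = 3e-12). Ptch1, the receptor and a target of the pathway, was not called, at 35.6, 35.2 and 39.3 CPM in D3RA and 36.3, 44.5 and 46.6 CPM in D3DMSO.

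Genes of the nuclear periphery and of H3K9 methylation, the chromatin features the series set out to map, gave counts nearer those of all genes. Of 16 genes of the lamina and inner nuclear membrane, 6 were higher and 5 lower, a share of 37.5% and 31.2% beside 30.7% and 31.4% of all genes, with a median of 0.01. Syne2, a nesprin of the nuclear envelope, was the 1 gene past 2-fold, at 486, 437 and 525 CPM in D3RA against 155, 161 and 210 CPM in D3DMSO (1.47 ± 0.11, limma adjusted p = 7.8e-09). Lbr, the lamin B receptor, was at 235, 226 and 192 CPM in D3RA and 263, 259 and 271 CPM in D3DMSO (-0.29 ± 0.07, limma adjusted p = 0.0028), a call lost from replicate 1 alone, and Lmna was low in both, at 4.74, 4.56 and 6.39 CPM in D3RA and 11.6, 9.24 and 6.66 CPM in D3DMSO. Lmnb1 was not called, at 172, 161 and 218 CPM in D3RA and 181, 174 and 183 CPM in D3DMSO. From replicate 1 alone, 4 of the 16 were higher and 1 was lower.

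Of 26 genes of H3K9 methylation, 11 (42.3%) were higher and 7 (26.9%) lower, with a median of 0.10. The exceptions in size were Prdm16, at 11.1, 12.4 and 16.9 CPM in D3RA against 0.138, 0 and 0.155 CPM in D3DMSO, and its relative Mecom, at 70.4, 78.2 and 65.8 CPM in D3RA against 1.66, 1.44 and 3.10 CPM in D3DMSO (5.13 ± 0.20, limma adjusted p = 2.3e-12). Both are SET domain proteins better known as developmental transcription factors. Setdb1, an H3K9 methyltransferase, was not called, at 126, 121 and 116 CPM in D3RA and 118, 134 and 125 CPM in D3DMSO, and Trim28, its partner, was at 498, 417 and 453 CPM in D3RA and 659, 608 and 586 CPM in D3DMSO (-0.44 ± 0.08, limma adjusted p = 0.00015). From replicate 1 alone, 4 of the 26 were lower, not 7. Among 10 DNA methylation genes, 4 were higher and 3 lower, a share near that of all genes, and Dnmt3b, the de novo methyltransferase of early embryos, was at 20.5, 16.6 and 22.8 CPM in D3RA, against 293, 182 and 252 CPM in D3DMSO and a D0 mean of 1273 CPM (-3.58 ± 0.14, limma adjusted p = 1.5e-12).

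Metabolic and stress genes separated the routes as well. Of 24 glycolysis and hypoxia genes, 21 were lower in D3RA and 1 higher, with a median of -1.38, and the summed level was 2815 to 3094 CPM in D3RA against 5355 to 6256 CPM in D3DMSO. The 2 glucose transporters moved in opposite directions. Slc2a3 (GLUT3) was at 68.9, 82.4 and 63.9 CPM in D3RA, against 857, 958 and 939 CPM in D3DMSO (-3.68 ± 0.10, limma adjusted p = 3e-14), whereas Slc2a1 (GLUT1) was at 503, 559 and 513 CPM in D3RA and 198, 267 and 251 CPM in D3DMSO (1.15 ± 0.10, limma adjusted p = 5e-08). Ddit4, a stress-induced inhibitor of mTORC1, was at 10.7, 6.84 and 7.76 CPM in D3RA, against 158, 140 and 101 CPM in D3DMSO. In the list of immediate early and stress genes, 13 of 21 were lower and 4 higher, with a median of -0.75. Genes of the amino acid response led those lower in D3RA. Asns (asparagine synthetase) was at 88.3, 94.5 and 76.7 CPM in D3RA, against 887, 743 and 797 CPM in D3DMSO and a D0 mean of 193 CPM (-3.22 ± 0.08, limma adjusted p = 1.4e-14). Chac1 was at 5.28, 4.89 and 8.22 CPM in D3RA, against 112, 80.0 and 79.3 CPM in D3DMSO, and Trib3 was also lower. Since Asns averaged more in D3DMSO than in D0 and less in D3RA than in D0, the groups lay on either side of the undifferentiated cells. Gadd45g, known from neurogenesis as well as stress, was at 46.2, 43.3 and 47.5 CPM in D3RA, against 1.24, 0.205 and 0.620 CPM in D3DMSO (6.13 ± 0.33, limma adjusted p = 9.3e-11).

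Of 35 cell cycle genes, 13 (37.1%) were higher and 10 (28.6%) lower, with a median of 0.07, beside 30.7%, 31.4% and a median of -0.01 over all genes. Cdk4 was at 859, 939 and 794 CPM in D3RA and 429, 429 and 426 CPM in D3DMSO (1.01 ± 0.07, limma adjusted p = 2.2e-09), and Cdkn1a (p21), an inhibitor, at 1.09, 0.651 and 1.37 CPM in D3RA and 7.04, 6.98 and 7.28 CPM in D3DMSO (-2.66 ± 0.27, limma adjusted p = 2.3e-07). Top2a was not called. Common reference genes gave 7 of 17 (41.2%) higher, 4 (23.5%) lower and a median of -0.04, to set beside the same shares of all genes. Tfrc, the transferrin receptor, was at 811, 735 and 681 CPM in D3RA against 205, 241 and 232 CPM in D3DMSO (1.71 ± 0.07, limma adjusted p = 5.6e-12). From replicate 1 alone, 4 of those 17 were higher, and with quantile normalization 3. Several reference genes, Eef1a1, Ppia and Tubb5 among them, have processed copies that could take or lend reads, so their levels are uncertain.

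Of 18 imprinted and oncofetal genes, 7 (38.9%) were higher and 8 (44.4%) lower, beside 30.7% and 31.4% of all genes. The neighbours H19 and Igf2 were both higher, H19, a noncoding RNA, at 289, 263 and 289 CPM in D3RA against 30.9, 47.4 and 26.8 CPM in D3DMSO (3.04 ± 0.18, limma adjusted p = 2.4e-10), and Igf2, a fetal growth factor, at 125, 116 and 129 CPM in D3RA against 14.1, 21.1 and 16.4 CPM in D3DMSO (2.85 ± 0.17, limma adjusted p = 2.3e-10). Meg3, a noncoding RNA of another imprinted locus, was lower, at 30.8, 33.9 and 40.7 CPM in D3RA against 136, 109 and 142 CPM in D3DMSO (-1.87 ± 0.11, limma adjusted p = 1.7e-10). A stretch of 7 adjacent genes of the table from Meg3 to Mir453 was lower as a block. Lin28a, an RNA-binding protein of pluripotent cells, was at 55.7, 48.2 and 52.1 CPM in D3RA, against 470, 535 and 534 CPM in D3DMSO (-3.30 ± 0.10, limma adjusted p = 6.9e-14).

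Undifferentiated cells lay closer to the DMSO route for most of the genes that separated the routes by 2-fold or more. Of the 1745 genes higher in D3RA, D0 was below both routes for 704 (40.3%) and above both for 131 (7.51%), and its level was nearer D3DMSO for 1321 (75.7%). Of the 1894 genes lower in D3RA, D0 was above both routes for 646 (34.1%) and below both for 238 (12.6%), and was nearer D3DMSO for 1298 (68.5%). These are counts of positions on the log2 scale, with no test.

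Day 6 libraries share no sample with day 3, although both days entered the same fit. They gave 4802 genes (32.6%) higher and 4876 (33.1%) lower in D6RA than in D6DMSO. Of the 4517 genes higher in D3RA, 2778 were also higher in D6RA, which is 61.5% of the day 3 list and 57.9% of the day 6 list, while 651 (14.4%) were lower. Of the 4619 genes lower in D3RA, 2825 were also lower in D6RA (61.2% of the day 3 list and 57.9% of the day 6 list), and 494 (10.7%) were higher. Among those that differed by 2-fold or more at day 3, 1278 of 1745 kept the higher call and 1345 of 1894 the lower. Of the 476 list genes called at day 3, 158 were higher and 182 lower at both days, 53 were higher at day 3 and lower at day 6, and 12 the reverse.

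**Figure D4:**
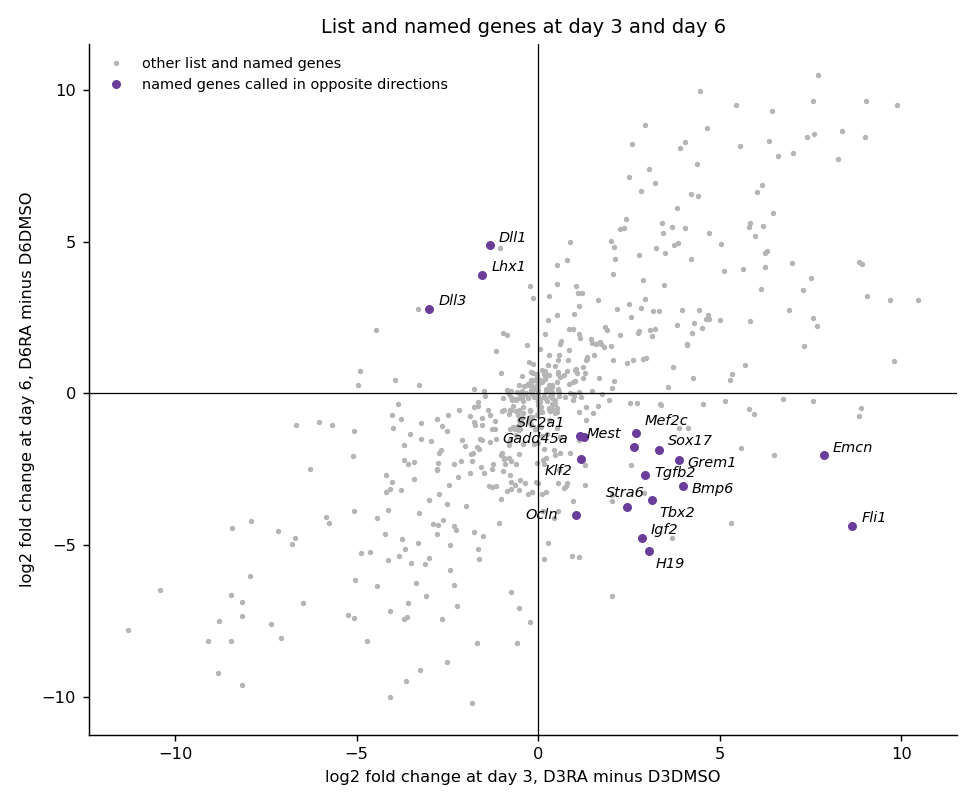
Log2 fold change between the routes at day 6 (D6RA minus D6DMSO) against that at day 3 (D3RA minus D3DMSO) for the list genes and other named genes, each point 1 gene. The 19 labelled genes were named at day 3 and were called in the opposite direction at day 6, by 2-fold or more at each day. Each also had a limma adjusted p under 0.05 for the difference between the days.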

How the data were processed

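Total RNA of P19 cells was sequenced after rRNA depletion with a stranded kit (75 bases, single end, NextSeq500, per the labels' protocols). In the table that the authors deposited, 14717 genes with Ensembl IDs have a log2 value in each of 15 libraries, scaled per library. The submitters' processing notes list the aligners STAR 2.6.0c and Bowtie2 2.2.9, the read tools Trimmomatic 0.32 and FastQC 0.11.2, SAMtools 0.1.19, featureCounts, limma, edgeR and the build mm9, without saying which made this table.

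From each deposited log2 value a count was recovered as a whole multiple of the smallest step of its library, after the 0.5 that had been added to it. All values (100%) came out within 0.05 of a whole number. Recovered counts gave CPM, zero counts and sums of counts. The main test used the deposited log2 values with limma 3.58.1 in R 4.3.3 (variance trend, 5 groups, 10 residual degrees of freedom, two-sided), with Benjamini-Hochberg adjustment over all 14717 genes. A filter of 1 CPM in 3 libraries removed no gene. Tables and figures used Python 3.11.15, pandas 2.3.3, numpy 2.4.6, scipy 1.17.1 and matplotlib 3.10.9. The fit was tested on simulated data with known changes. Replicates of each group differed by more than sampling noise.

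Symbols were found for 14228 IDs, and 489 had none. Named genes are the 4 markers, 12 genes at each extreme of the fold change (called, at 10 CPM or more, no overlap between groups, and not small RNAs, mitochondrial, predicted or unnamed genes), up to 4 called members per list and direction, the most abundant uncalled member of each list, and 10 genes at 100 CPM or more with the smallest change, cut in the text for length. The 31 lists hold 712 genes, of which 574 are in the table and the other 138 are not analysed here. Members, lists and tests were chosen with earlier results of these data known. Same-numbered D3RA and D3DMSO libraries were not treated as pairs. Alternatives covered scaling, the filter, the count added, the samples in the fit, voom weights, thinning to the smallest library, a replicate block and each D3 library left out in turn. A fit of the 6 D3 libraries with a replicate block, and one with only replicate 1 of each D3 group, were added after seeing the data.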

Additional observations from a re-analysis of the deposited data

Results flagged for a closer look

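Among the named genes, 19 were called in opposite directions at day 3 and day 6, by 2-fold or more at each day. They were also kept only with a limma adjusted p under 0.05 for the difference between the days. That choice fixes a difference between the days. The differences are therefore given as descriptions, with no p-value: each is D6RA minus D6DMSO less D3RA minus D3DMSO in the limma fit, on the log2 scale. Day 3 and day 6 share no libraries.

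Fli1 and Emcn, endothelial genes, had no count in D3DMSO, so their fitted differences depend on the count added to 0. Fli1 had a fitted difference of -13.03, and one of -11.94 with D3DMSO set at a floor of 3 counts over the group. It averaged 1.05 ± 0.337 CPM in D6RA and 21.5 ± 2.83 CPM in D6DMSO (SD, n = 3 each), after 33.0 ± 4.67 CPM in D3RA and none in D3DMSO. Emcn had a fitted difference of -9.915, and one of -8.91 at the same floor, with 1.91 ± 0.551 CPM in D6RA and 7.79 ± 1.42 CPM in D6DMSO. Of the 21 endothelial and blood genes, none was higher and 17 were lower in D6RA than in D6DMSO.

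Imprinted growth genes were also among the 19. H19 differed by -8.25, with 31.1 ± 7.66 CPM in D6RA and 1140 ± 146 CPM in D6DMSO, and Igf2 by -7.607, with 21.7 ± 3.59 CPM in D6RA and 583.8 ± 88.4 CPM in D6DMSO. Mest differed by -4.395.

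Differences of the same sign were found for Bmp6 (-7.047), Tbx2 (-6.652), Stra6 (-6.209), Grem1 (-6.058), Tgfb2 (-5.628), Sox17 (-5.206), Ocln (-5.058), Mef2c (-3.983), Klf2 (-3.334), Gadd45a (-2.698) and Slc2a1 (-2.549), all higher in D3RA and lower in D6RA than in their DMSO groups. Some of these rest on low levels. Bmp6, Tbx2 and Grem1 averaged under 1 CPM in D3DMSO and in D6RA, Grem1 at 0.114 and 0.807 CPM. Ocln and Klf2 averaged 0.135 and 0.487 CPM in D6RA, and their day 3 calls were not kept under every alternative.

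The other way, 3 genes were lower in D3RA and higher in D6RA: Dll1 differed by 6.212, with 279 ± 6.74 CPM in D6RA and 9.51 ± 0.892 CPM in D6DMSO, Dll3 by 5.776, and Lhx1 by 5.449, with 168 ± 5.71 CPM in D6RA and 11.5 ± 3.03 CPM in D6DMSO.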

How the results depend on the processing

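Over 19 alternatives, genes called higher in D3RA numbered 3463 to 4612 (4517 in the result reported) and genes called lower 3438 to 4779 (4619), each within 1.5 times the reported count, and at 2-fold or more 1447 to 1771 were higher and 1324 to 1942 lower. Leaving out 1 D3 library gave 4245 to 4445 higher and 4368 to 4503 lower. The share of calls that were higher ran from 47.7 to 51.2%. The 6 D3 libraries alone gave 3665 higher and 3674 lower, and replicate 1 of each group alone 3857 and 3800. Same-numbered D3RA and D3DMSO libraries deviated from their group means with correlations of 0.263, 0.0795 and 0.127 over 12552 genes, so the numbers were not taken to pair them, although each library correlated best with its own number. With a replicate block, 4579 genes were higher and 4708 lower.

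Of 248 named genes, 211 were called, and 188 of these under every alternative that kept them. The calls of 23 were lost in 1 or more, among them Ccna1, Eef1a1, Emd, En1, Gusb, Hhip, Isl1, Kif7, Klf2, Lbr, Lemd3, Lmna, Lmnb2, Mbd3, Myl7, Nkx6-1, Ocln, Rbp4, Smarcd3, Sox8, Tdg and Tet1. Of the 37 not called, 18 were called in 1 or more. Rictor, chosen as alike in level, was called higher at 0.41 (limma adjusted p = 0.01) from replicate 1 alone. The Hedgehog list fell to 4 members called higher with thinned libraries and with voom weights, and the reference genes to 3 with quantile normalization. The cause was not tested. Depth limits genes near 1 CPM most in D3RA replicate 3, which had 515 genes at 0 counts.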

Other observations

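By annotated class, 65.2% of 12596 protein-coding genes were called between D3RA and D3DMSO, against 49.3% of 296 long noncoding RNAs and 36.7% of 652 pseudogenes. Of 16 miRNA genes in the table, 4 were higher and 8 lower in D3RA, a small number to set beside 30.7% higher and 31.4% lower over all genes. Libraries made from total RNA measure mainly the precursor transcripts of such genes, not mature miRNAs.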
